A study of Homo sapiens with 3 samples.

Results

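PVT1 is a long non-coding RNA gene on chromosome 8, next to and on the telomeric side of the transcription factor gene MYC. It is known as an oncogenic transcript that is often amplified together with MYC in breast and other cancers, and its promoter has been described as a competitor of the MYC promoter for the enhancers that lie within the gene body. The gene desert on the centromeric side of MYC holds variants associated with breast cancer risk, and the 8q24.21 capture was placed there. The values below describe how often this captured desert was found ligated to PVT1, and whether the promoter end of the gene differed from its body. The members were the HindIII target fragments whose midpoint lay between 128800000 and 129120000 of chromosome 8 (GRCh37), a stretch of 320 kb that holds PVT1 from about 128806779 to 129113499. There were 79 such fragments of the 3033 target fragments within 5 Mb of the captured region, running from 128801732 to 129121298. The promoter end was taken as the first 20 kb of the stretch with 5 fragments, and the gene body as the other 74. Introns and exons were not assigned, since the gene annotation used here refers to GRCh38.

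In capture Hi-C, ends of DNA that are neighbours in the fixed nucleus are ligated, and ligated pairs with 1 end in a chosen region are pulled out by hybridisation. BT483 is a line from a primary invasive ductal carcinoma of the breast, grown with insulin and lysed with trypsin. SUM44 is a breast cancer line from a pleural effusion, grown in phenol-red-free medium with 1 nM estradiol and lysed with a dounce. GM06990 is a lymphoblastoid line of B-lymphocyte origin, also lysed with a dounce. All were fixed for 5 min in 2% formaldehyde, and each line was 1 sample with 2 replicate columns (n = 2 per line). Nothing states that the replicates were separate cultures, so a p-value here reflects the spread of these samples alone, and that spread may be technical. Lysis and medium differ with the line and cannot be told apart from it.

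The captured region ran from 127886760 to 128470692 and held 192 fragments, and PVT1 began 329 kb beyond its telomeric end. Contacts within 5 Mb of it (near cis) numbered 87714 and 413006 in BT483, 422044 and 377102 in SUM44, and 148205 and 137456 in GM06990. The first BT483 replicate thus had the fewest near cis contacts. Near cis contacts per trans contact were 0.209 and 0.289 in BT483, 0.931 and 0.827 in SUM44, and 0.484 and 0.218 in GM06990, where trans means with other chromosomes. This ratio thus differed between the lines, with SUM44 highest, and between the GM06990 replicates. Without molecular identifiers, an interval on a count covers no more than counting error.

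PVT1 took a smaller part of the contacts of the captured desert in both breast lines than in GM06990. The PVT1 fragments held 4507 and 24851 contacts in BT483, 20279 and 18217 in SUM44, and 14260 and 15442 in GM06990. These were 5.14% and 6.02% of the near cis contacts in BT483, 4.80% and 4.83% in SUM44, and 9.62% and 11.2% in GM06990. The means were 5.58% ± 0.621 in BT483, 4.82% ± 0.0183 in SUM44 and 10.4% ± 1.14 in GM06990 (SD, n = 2 each). Neither breast line overlapped GM06990, and BT483 lay above SUM44 in both replicates. With 2 values against 2, an exact two-sided permutation test cannot go below 0.33, which is the p of each of these 3 comparisons. Exact 95% intervals on the shares were narrow beside the gap to GM06990, with the widest, in the second GM06990 replicate, running from 11.1% to 11.4%. Beside the gap between the breast lines they were not, since the interval of the first BT483 replicate ran from 4.99% to 5.29% and that of the second SUM44 replicate from 4.76% to 4.90%.

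The same order of lines was seen when PVT1 was set against a stretch of equal length and distance on the other side of the capture. This centromeric mirror stretch ran from 127237452 to 127557452. PVT1 had 1.27 and 1.29 times its contacts in BT483, 0.837 and 0.842 times in SUM44, and 3.41 and 4.28 times in GM06990. In GM06990, then, the desert met PVT1 far more often than it met the opposite side, while in SUM44 it met PVT1 slightly less often. The mirror stretch, with 101 fragments, itself differed between the lines, in the opposite order. It took 4.06% and 4.67% of the near cis contacts in BT483, 5.74% in both SUM44 replicates, and 2.82% and 2.63% in GM06990. The ratio therefore reflects both stretches and not PVT1 alone. The lines did not overlap, and the exact permutation p was 0.33 for each pair of lines.

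**Figure D1:**
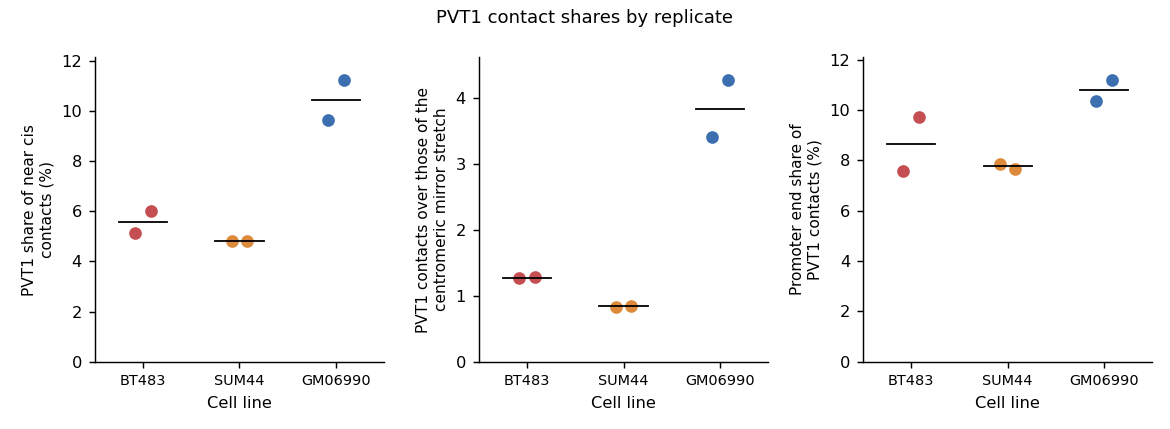
Contacts of the 79 PVT1 fragments in each cell line: share of the near cis contacts (left, %), ratio to the contacts of the centromeric mirror stretch (middle), and share that fell at the promoter end (right, %). Points are the 2 replicates and lines their mean; both GM06990 replicates lie above all 4 breast line replicates in each panel, at 9.62% and 11.2% on the left.

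To allow for distance, each count was divided by the count expected from a background fitted to each replicate over all targets within 5 Mb (observed over expected). PVT1 as a whole stood at 1.01 and 1.12 times the background in BT483, 0.869 and 0.872 times in SUM44, and 1.58 and 1.88 times in GM06990. The gene body alone stood at 1.01 and 1.09 in BT483, 0.866 and 0.870 in SUM44, and 1.54 and 1.83 in GM06990. On the log2 scale the body averaged 0.07 ± 0.07 in BT483, -0.20 ± 0.005 in SUM44 and 0.75 ± 0.17 in GM06990 (SD, n = 2 each). The exact two-sided permutation p was 0.33 for every pair of lines, none of which overlapped. Whether a line stood above or below its background depended on what the background was made of. With telomeric targets other than PVT1 as background, a choice made after seeing the data, the body stood at 0.743 and 0.828 in BT483, 0.683 and 0.686 in SUM44, and 0.985 and 1.23 in GM06990. The order of the lines was the same with that background.

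The promoter end stood above the gene body as a whole in GM06990, and the data did not settle this for BT483. The 5 promoter end fragments held 341 and 2413 contacts in BT483, 1589 and 1398 in SUM44, and 1479 and 1728 in GM06990. They are 6.33% of the PVT1 fragments and took 7.57% and 9.71% of the PVT1 contacts in BT483, 7.84% and 7.67% in SUM44, and 10.4% and 11.2% in GM06990. Both GM06990 replicates lay above every breast replicate.

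Over the distance background, the promoter end stood at 0.992 and 1.5 in BT483, 0.913 and 0.892 in SUM44, and 1.99 and 2.51 in GM06990. The log2 difference between promoter end and body was -0.03 and 0.46 in BT483, 0.08 and 0.04 in SUM44, and 0.37 and 0.46 in GM06990. SUM44 lay below GM06990 without overlap (exact permutation p = 0.33), whereas the BT483 replicates spanned the values of both other lines (exact permutation p = 1 against each). With the first 40 kb taken as promoter end, the difference was 0.20 in GM06990 and -0.04 in SUM44, so its size in GM06990 rests on the fragments nearest the gene's start.

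**Figure D2:**
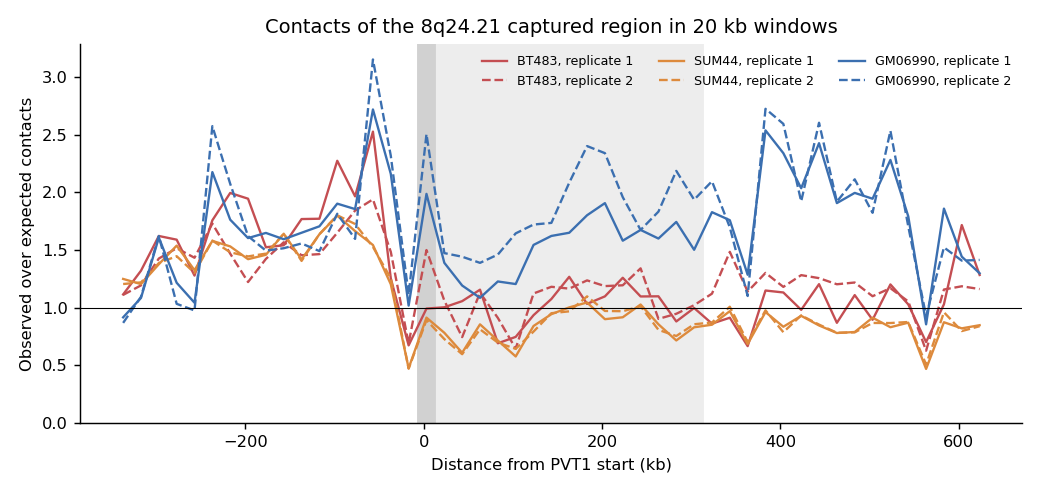
Contacts of the captured region over the distance background in 20 kb windows along the chromosome, by distance from the PVT1 start (kb), with a line for each replicate of each cell line. The PVT1 stretch is shaded, its promoter end darker; GM06990 reached 1.99 and 2.51 in the promoter end window, against 1.02 and 1.11 in the window just before it and 2.72 and 3.16 in the window centred 56.8 kb before the start.

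The promoter end followed a window of lower contact in every library. In the 20 kb window just before the PVT1 stretch, contacts were at 0.672 and 0.688 times the background in BT483, 0.474 and 0.470 in SUM44, and 1.02 and 1.11 in GM06990. All 6 libraries were lower in that window than in the promoter end window. In the 20 kb window after the promoter end they were at 1.00 and 1.06 in BT483, 0.782 and 0.727 in SUM44, and 1.39 and 1.47 in GM06990. Farther upstream, around MYC, all 6 libraries were higher than at the promoter end. The window centred 56.8 kb before the PVT1 start stood at 2.53 and 1.94 in BT483, 1.54 and 1.53 in SUM44, and 2.72 and 3.16 in GM06990.

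MYC lies in the 60 kb before the PVT1 stretch, whose 11 fragments stood at 1.41 and 1.33 in BT483, 1.04 and 1.05 in SUM44, and 1.92 and 2.14 in GM06990. These values were above those of the PVT1 body in all 6 libraries. The 320 kb beyond PVT1 stood at 0.987 and 1.18 in BT483, 0.822 and 0.832 in SUM44, and 1.84 in both GM06990 replicates. The lines were therefore in the same order on both sides of PVT1 as within it.

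Within PVT1 the contacts were lower from 80 to 120 kb into the stretch than in the middle of the gene. From 80 to 120 kb into the stretch, observed over expected was 0.701 and 0.858 in BT483, 0.687 and 0.686 in SUM44, and 1.22 and 1.5 in GM06990. From 160 to 200 kb it was 1.10 and 1.22 in BT483, 1.03 and 1.06 in SUM44, and 1.76 and 2.31 in GM06990. Each library was higher in the second of these windows than in the first. The window from 40 to 80 kb was about as low as the first in SUM44, at 0.705 and 0.681, and in GM06990, at 1.15 and 1.42. In BT483 it was higher than the first, at 1.10 and 0.896. Across the 79 fragments, the log2 of the mean observed over expected of each line had a Pearson r of 0.807 between BT483 and GM06990, 0.847 between SUM44 and GM06990, and 0.887 between BT483 and SUM44. Fragments are not independent replicates, and the lines share their lengths and the same captured fragments.

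The fragment with the highest mean over the 6 libraries lay in the body, from 129045753 to 129050321. It held 84 and 492 contacts in BT483, 392 and 334 in SUM44, and 254 and 242 in GM06990. Observed over expected was 1.76 ± 0.163 in BT483, 1.40 ± 0.0470 in SUM44 and 2.61 ± 0.112 in GM06990 (SD, n = 2 each). It ranked 1 of 79 in BT483, 2 in SUM44 and 8 in GM06990. The next fragment, from 129050322 to 129054338, was also among the 5 highest. It stood at 1.64 ± 0.184 in BT483, 1.32 ± 0.0895 in SUM44 and 2.29 ± 0.290 in GM06990.

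A fragment from 128934618 to 128939087 ranked first in SUM44, at 1.45 ± 0.0679, and stood at 1.47 ± 0.193 in BT483 and 2.65 ± 0.223 in GM06990 (SD, n = 2 each). The fragment from 129026924 to 129031576 ranked first in GM06990, at 3.11 ± 0.511, and stood at 1.42 ± 0.00487 in BT483 and 1.25 ± 0.0208 in SUM44. The last of the 5, from 128990051 to 128992508, stood at 1.45 ± 0.0365 in BT483, 1.25 ± 0.0490 in SUM44 and 2.64 ± 0.465 in GM06990. All 5 of these fragments were in the gene body, and none held the PVT1 start or end.

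Fragment length, which the choice of members did not use, differed along with the values, but not steadily. The fragments were 7 to 15395 bases long with a median of 3269. The 11 fragments under 500 bases had a median observed over expected of 0.758 in BT483, 0.570 in SUM44 and 0.912 in GM06990. The 37 fragments from 2000 to under 8000 bases had medians of 1.20 in BT483, 0.964 in SUM44 and 2.12 in GM06990. The 12 fragments of 8000 bases and over had lower medians again, of 0.967 in BT483, 0.685 in SUM44 and 1.53 in GM06990. Across the 79 fragments, Spearman's rho of observed over expected with length was 0.43 in BT483, 0.21 in SUM44 and 0.44 in GM06990. The lowest value in every line belonged to the shortest fragment, from 128890682 to 128890688, with 13 and 84 contacts in BT483, 64 and 56 in SUM44, and 7 and 28 in GM06990. Fragments of 1 library share their captured fragments and are not independent.

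**Figure D3:**
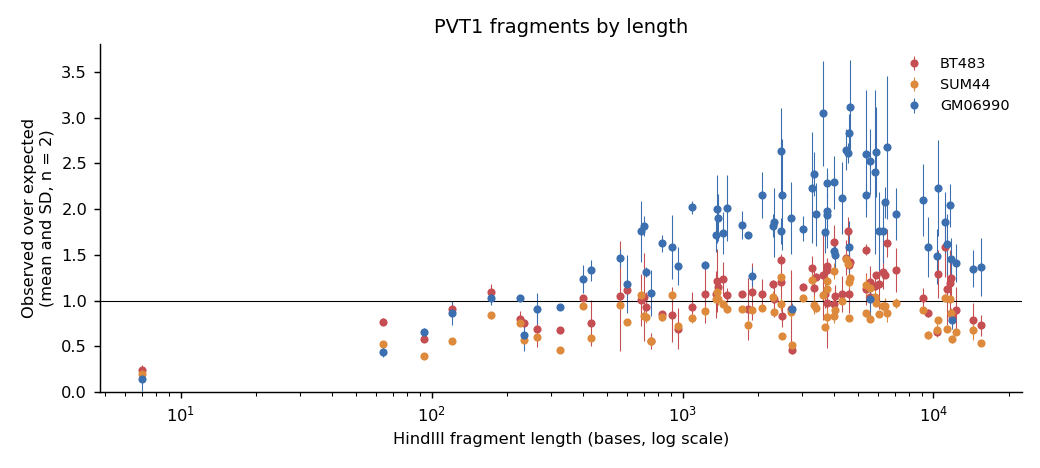
Observed over expected contacts of the 79 PVT1 fragments against their length (bases, log scale), as the mean of 2 replicates per line with SD bars. The shortest fragment lies lowest in each line, and the 37 fragments from 2000 to under 8000 bases reach a median of 2.12 in GM06990.

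Fragment by fragment, the difference from GM06990 spanned the whole gene. Counts summed over the captured fragments were compared with edgeR's quasi-likelihood test, with each replicate's distance background as offset and Benjamini-Hochberg adjustment over 5466 target fragments of the 3 risk loci. The lines shared 1 spread estimate in this fit, although their replicates did not scatter alike. The chi-square per degree of freedom between replicates was 3.82 in BT483, 1.19 in SUM44 and 2.20 in GM06990. The p-values therefore do not reflect the spread of each line by itself. All 79 PVT1 fragments passed the filter of 50 contacts in 1 line. In BT483 against GM06990, 51 of 79 were lower and 1 was higher at an adjusted p under 0.05, against 5.69% lower and 7.78% higher among all fragments tested. The median log2 change of the PVT1 fragments was -0.70, against 0.06 over all tested. At the promoter end 4 of 5 fragments were lower, and in the body 47 of 74. Without the second GM06990 replicate far fewer fragments were called lower, and the 1 fragment called higher with all replicates lost its call. The share over all fragments tested was not computed for that fit.

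In SUM44 against GM06990, 70 of 79 fragments were lower and 0 were higher, against 11% lower and 16.1% higher among all tested. The median log2 change was -0.96, against 0.09 over all tested. All 5 promoter end fragments were lower, as were 65 of the 74 in the body. DESeq2 called 65 fragments, and an unadjusted edgeR p under 0.05 was reached by 74. Both comparisons use the same GM06990 columns, so they are not independent of each other.

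**Figure D4:**
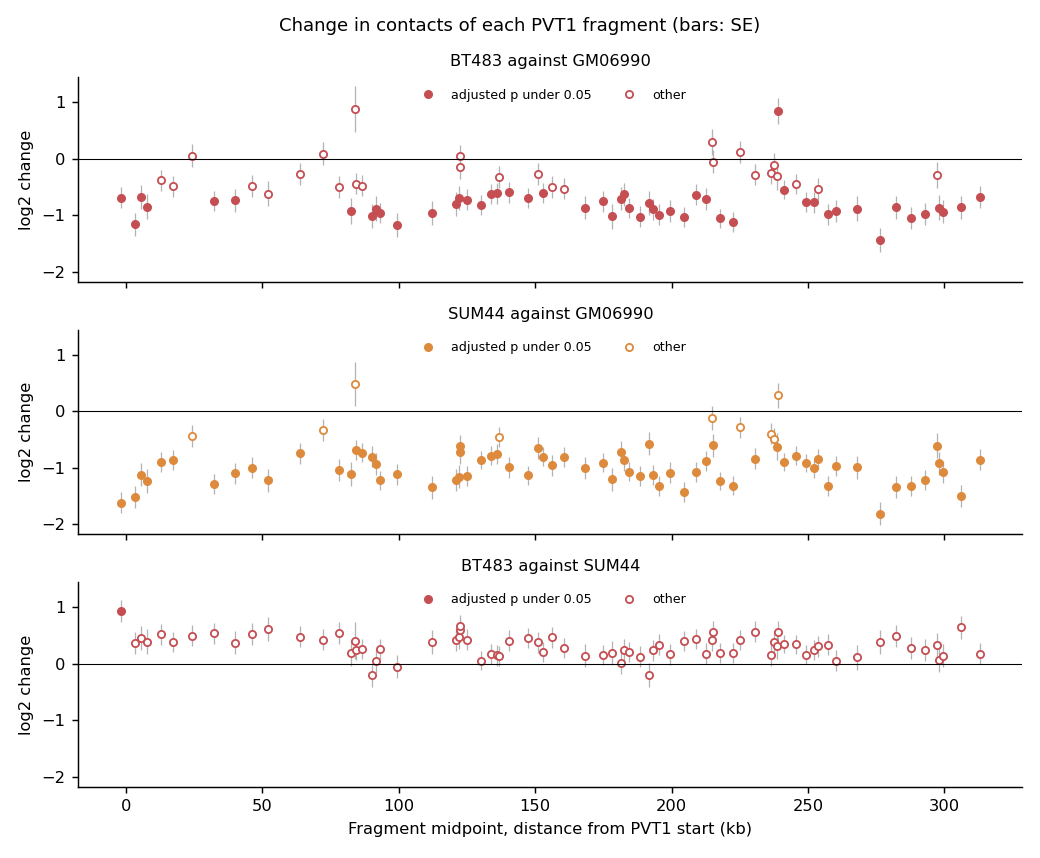
log2 change of each PVT1 fragment by its distance from the PVT1 start (kb), for BT483 against GM06990, SUM44 against GM06990 and BT483 against SUM44 from top to bottom, with SE bars. Filled points have an edgeR adjusted p under 0.05; most points of the upper panels lie below 0 along the whole gene, with medians of -0.70 and -0.96, and 1 point is filled in the lowest panel.

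The lower contact was not limited to PVT1. Of the 60 kb before it, 8 of 10 fragments tested were lower in BT483 and 10 of 10 in SUM44 against GM06990. Of the 320 kb beyond it, 59 of 99 were lower in BT483 and 84 of 99 in SUM44. The median log2 changes against GM06990 were -0.62 before and -0.73 beyond PVT1 in BT483, and -0.98 before and -1.07 beyond it in SUM44. No test of PVT1 against these neighbours was run.

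The fragment from 129081895 to 129084391, in the telomeric part of the body, was the lowest against GM06990 in both breast lines. It held 45 and 191 contacts in BT483, 162 and 145 in SUM44, and 166 and 221 in GM06990. Observed over expected was 0.909 and 0.744 in BT483, 0.611 and 0.612 in SUM44, and 1.73 and 2.58 in GM06990. The log2 change was -1.44 (SE 0.214) in BT483 and -1.81 (SE 0.201) in SUM44, with edgeR adjusted p of 0.000405 and 4.09e-06. Both breast lines lay below both GM06990 replicates.

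The second fragment of the promoter end, from 128808279 to 128811894, lies just inside the gene. It held 64 and 524 contacts in BT483, 365 and 337 in SUM44, and 395 and 478 in GM06990. It stood at 0.928 and 1.63 times the background in BT483, 1.05 and 1.07 times in SUM44, and 2.64 and 3.45 times in GM06990. The log2 change against GM06990 was -1.16 (SE 0.199, edgeR adjusted p = 0.000913) in BT483 and -1.52 (SE 0.193, edgeR adjusted p = 1.3e-05) in SUM44. The body fragment from 128900986 to 128911350 was the lowest in BT483 after 129081895, at a log2 change of -1.18 (SE 0.206, edgeR adjusted p = 0.00107).

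The 1 fragment that was higher in BT483 than in GM06990 was 64 bases long, from 129045689 to 129045752. It held 38 and 210 contacts in BT483, 145 and 129 in SUM44, and 40 and 43 in GM06990. Its log2 change was 0.84 (SE 0.229, edgeR adjusted p = 0.0192) in BT483 and 0.28 (SE 0.224, edgeR adjusted p = 0.368) in SUM44. With DESeq2 the adjusted p of this higher fragment was 0.0588, and without the second GM06990 replicate its edgeR adjusted p was 0.0502. Of the 11 fragments under 500 bases, 1 was lower and 1 higher in BT483 against GM06990, and 5 were lower and 0 higher in SUM44 against GM06990. Their median log2 change was -0.14 in BT483 and -0.46 in SUM44, against -0.75 in BT483 and -1.0 in SUM44 for the 68 longer fragments. With target length in the offset, an alternative chosen after seeing the data, 54 PVT1 fragments differed in BT483 and 74 in SUM44 against GM06990.

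Among the lower fragments, the smallest called changes in BT483 were -0.55 (SE 0.168) at 129045753 to 129050321 and -0.60 (SE 0.188) at 128943702 to 128950785, with edgeR adjusted p of 0.0328 and 0.0386. In SUM44 they were -0.58 (SE 0.203) at 128998119 to 128999023, -0.61 (SE 0.199) at 129021724 to 129022324 and -0.61 (SE 0.216) at 129104033 to 129104294, with edgeR adjusted p between 0.0270 and 0.0393. These 3 fragments are each under 1 kb, and their calls, like that at 128943702, were lost with DESeq2 (adjusted p between 0.0618 and 0.114). The fragment that holds the PVT1 end, from 129107577 to 129118029, was lower in both lines. It stood at 1.47 and 1.10 in BT483, 0.771 and 0.800 in SUM44, and 1.86 and 2.60 in GM06990, with log2 changes of -0.86 (SE 0.204, edgeR adjusted p = 0.00883) in BT483 and -1.50 (SE 0.196, edgeR adjusted p = 1.59e-05) in SUM44. Without the second GM06990 replicate its change in BT483 was -0.61 (edgeR adjusted p = 0.112).

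The fragment that holds the PVT1 start differed between the breast lines. It runs from 128801732 to 128808278 and held 106 and 562 contacts in BT483, 330 and 251 in SUM44, and 320 and 452 in GM06990. Observed over expected was 1.52 and 1.73 in BT483, 0.940 and 0.793 in SUM44, and 2.12 and 3.23 in GM06990. The lines did not overlap, with BT483 between SUM44 and GM06990. Against SUM44 it was higher in BT483 by 0.93 on the log2 scale (SE 0.191, edgeR adjusted p = 0.0308). Its log2 change against GM06990 was -0.69 (SE 0.188, edgeR adjusted p = 0.0186) in BT483 and -1.62 (SE 0.187, edgeR adjusted p = 5.53e-06) in SUM44. Without the second GM06990 replicate the change in BT483 was -0.36 (edgeR adjusted p = 0.287).

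It was the 1 called fragment of 79 in BT483 against SUM44, where 0.0732% of all fragments tested were higher and 0.201% lower. The median log2 change of the PVT1 fragments in that comparison was 0.33, against -0.01 over all tested, and 28 had an unadjusted edgeR p under 0.05. The call was lost with DESeq2 (adjusted p = 0.0881) and with the near cis total as offset (edgeR adjusted p = 0.0593). It was also lost when the second BT483 replicate (edgeR adjusted p = 0.0703), the first SUM44 replicate (0.172) or the second SUM44 replicate (0.671) was left out. Without the first BT483 replicate, more PVT1 fragments were called higher in BT483 than in SUM44. The share over all fragments tested was not computed for that fit, so the rise cannot be set apart from other targets.

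The contacts of PVT1 did not come evenly from the captured desert, and the lines differed in where they came from. The captured region was cut into 6 bins of about 100 kb. In BT483 and SUM44 the bin farthest from PVT1, from 127886760 to 127981951 with 29 captured fragments, gave the highest ratio. It stood at 1.44 and 1.57 in BT483, 1.19 and 1.18 in SUM44, and 1.98 and 2.10 in GM06990. The lowest ratio in both breast lines came from the bin at 128288271 to 128385621, with 0.749 and 0.943 in BT483, 0.660 and 0.655 in SUM44, and 1.65 and 2.20 in GM06990.

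In GM06990 the highest ratio came from the bin at 128186821 to 128288270 with 34 captured fragments, the stretch in which the non-coding gene CCAT1 is known to lie. It stood at 1.06 and 1.15 in BT483, 0.842 and 0.829 in SUM44, and 2.08 and 2.90 in GM06990. With the promoter end alone, this bin stood at 0.994 and 1.62 in BT483, 0.893 and 0.842 in SUM44, and 2.79 and 4.15 in GM06990. The GM06990 replicates lay above those of both breast lines there, and they also differed most from each other.

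In the bin nearest to PVT1, from 128385622 to 128470692, the lines were closer together. Observed over expected was 0.916 and 0.979 in BT483, 0.782 and 0.756 in SUM44, and 1.01 and 1.18 in GM06990. The bin at 127981952 to 128091027, in which the non-coding gene PCAT1 is known to lie, was similar, with 1.05 and 1.10 in BT483, 1.00 and 1.06 in SUM44, and 1.24 and 1.23 in GM06990. Bins share their targets and libraries and are not replicates, and the differences between bins were not tested.

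**Figure D5:**
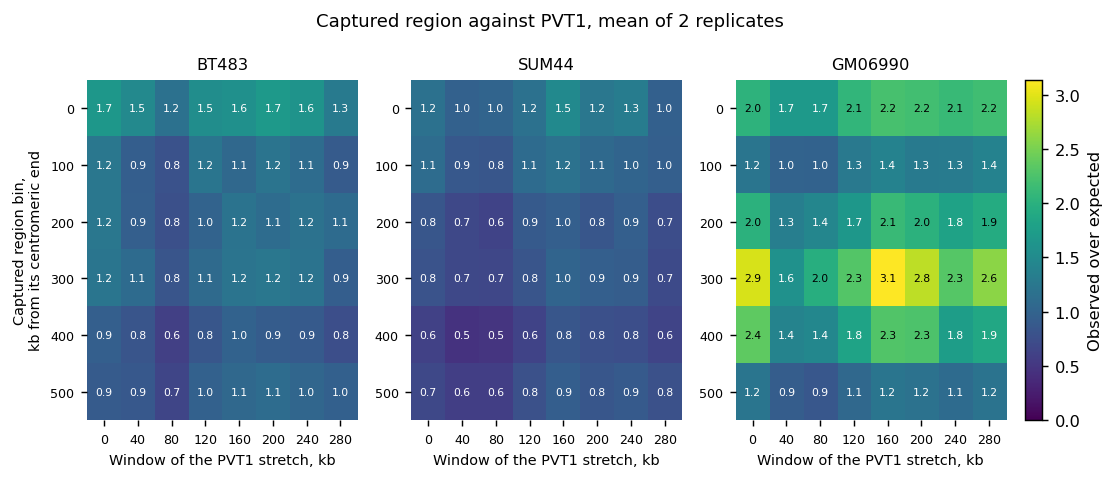
Observed over expected contacts between bins of the captured region (rows, kb from the centromeric end) and 40 kb windows of the PVT1 stretch (columns, kb from its start), as the mean of 2 replicates per line. In GM06990 the row at 300 kb is the brightest, with a mean of 2.49 over all PVT1 fragments, against 1.10 in BT483 and 0.835 in SUM44.

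No single pair of a captured and a PVT1 fragment was called above the background in any line. Calling a pair took 5 or more contacts and a Benjamini-Hochberg adjusted p no higher than 0.01, from the upper tail of the negative binomial background over 582336 pairs, of which 15168 involved PVT1. The calls were 0 of 15168 in each line, against 0.00103% of all pairs in BT483, 0.000687% in SUM44 and 0.000859% in GM06990. At shares this low, 0 calls do not set PVT1 apart from other targets. In simulated counts, 200 PVT1 pairs were raised, drawn only from those with at least a set minimum expected count. Raised 5 times, they were called in 6% of cases in BT483, 8% in SUM44 and 1.5% in GM06990. Such pairs raised 20 times were called in 83.5%, 79.5% and 39.5%. These rates do not cover PVT1 pairs with lower expected counts. Most pairs raised 5 times would thus have been missed. An unadjusted p under 0.05 together with 5 or more contacts was reached by 2.64% of the PVT1 pairs in BT483, 1.21% in SUM44 and 6.75% in GM06990. Under the same conditions the shares of all pairs were 1.04%, 1.92% and 0.702%. The shares of all pairs were not matched to PVT1 for distance, which affects how many pairs can reach 5 contacts. The mean count per PVT1 pair was 1.94 in BT483, 2.54 in SUM44 and 1.96 in GM06990, and the dispersion of the background was 0.291 in BT483, 0.376 in SUM44 and 0.837 in GM06990.

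The pair nearest to a call was in GM06990, between the captured fragment from 128192178 to 128201573 and the fragment with the PVT1 start. Its contacts were 0 and 4 in BT483, 4 and 2 in SUM44, and 8 and 13 in GM06990. In GM06990 its 21 contacts were 20.3 times the expected count (exact 95% interval 12.5 to 31.0), with an adjusted p of 0.0129 by the negative binomial tail. The captured fragment from 128314311 to 128319325 had more contacts with the start fragment, with 3 and 8 in BT483, 1 and 1 in SUM44, and 14 and 23 in GM06990. That was 13.7 times the expected count in GM06990. The same captured fragment also met the second promoter end fragment 0 and 4 times in BT483, 1 and 4 times in SUM44, and 15 and 19 times in GM06990.

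With a Poisson background, which allows less spread between pairs, 2 PVT1 pairs were called in BT483, 4 in SUM44 and 229 in GM06990. The shares of all pairs called that way were 0.0244% in BT483, 0.176% in SUM44 and 0.195% in GM06990. The 229 pairs of GM06990 involved 56 PVT1 fragments and 41 captured fragments, and 44 of them were at the promoter end. Pairs are not replicates, and such a call says only that a pair stands above the background of its line.

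Trans contacts of the PVT1 stretch with captured regions of other chromosomes rise with the number of DNA copies, and they did not follow the near cis order. The 6 windows of 50 kb within PVT1 held 146 and 487 trans contacts in BT483, 192 and 176 in SUM44, and 127 and 261 in GM06990. Per window they stood at 0.901 and 1.23 times the median window of chromosome 8 in BT483, 1.60 and 1.47 times in SUM44, and 0.962 and 0.906 times in GM06990. Against the windows within 5 Mb on either side they stood at 0.730 and 0.783 in BT483, 1.14 and 1.01 in SUM44, and 0.787 and 0.761 in GM06990. SUM44, with the lowest PVT1 contact over background in cis, had the highest trans level. The part of DNA copies in the cis differences was not tested.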

How the data were processed

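The authors deposited read pair counts for each pair of captured and target HindIII fragments, with 1 count column per replicate and no normalisation. Per the submitters' processing notes, CASAVA 1.8 was used and positions refer to GRCh37; the aligner is not given in the sources used here. Only near cis counts of 3 risk loci and trans counts in 50 kb windows were used, and counts between captured fragments were left out.

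For each replicate and locus a negative binomial regression gave the expected count of a pair from its log10 distance, as a cubic spline on 4 knots, and from the log of the captured fragment's trans count. Observed over expected is a ratio of sums, with a pseudocount of 1 on the fragment log2 scale. Fragments with at least 50 contacts in 1 line were tested with edgeR 4.0.16 (R 4.3.3), with log expected counts as offset, and DESeq2 1.42.0 was an alternative. Other statistics used Python 3.11.15, NumPy 2.4.6 and SciPy 1.17.1. The scripts were tested on simulated data.

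Named fragments were those with the PVT1 start and end, the 5 highest by mean log2 observed over expected, and the 3 highest and 3 lowest called changes per pair of lines. The nearest pairs were chosen after their values were seen. The members, lists and tests were chosen with earlier results of these data known. MYC, CCAT1 and PCAT1 were placed from general knowledge of GRCh37.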

Additional observations from a re-analysis of the deposited data

Results flagged for a closer look

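The fragment with the PVT1 start was the 1 PVT1 fragment whose change against GM06990 differed between the breast lines by a test of the difference itself. Most other PVT1 fragments moved the same way without passing the threshold. In BT483 against SUM44, 3 of 79 lay below 0 and the median log2 change was 0.33. The median was 0.43 in the 320 kb beyond PVT1. For the start fragment, the change in BT483 minus that in SUM44 was 0.93 on the log2 scale (edgeR adjusted p = 0.0308). Its contacts were 106 and 562 in BT483, 330 and 251 in SUM44, and 320 and 452 in GM06990. Because both changes use the same GM06990 columns, this difference is the same quantity as BT483 against SUM44. It was positive under every alternative run, between 0.81 and 1.05, and the adjusted p ranged from 0.00144 to 0.671.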

How the results depend on the processing

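The counts of PVT1 fragments that differed from GM06990 kept within 1.5 times of 52 in BT483 and 70 in SUM44 under DESeq2 (48 and 65), the near cis total as offset (62 and 72), a background without PVT1 (61 and 75), no filter, 8q24.21 fitted alone, TMM factors and, as an alternative chosen after seeing the data, target length in the offset. Windows of 20 kb gave 15 of 16 in BT483, 16 of 16 in SUM44 and 0 in BT483 against SUM44. Leaving out 1 replicate gave 18 to 53 in BT483 and 52 to 74 in SUM44 against GM06990, with the 18 without the second GM06990 replicate, and 0 to 15 in BT483 against SUM44, where DESeq2 and the near cis total each gave 0. A lone replicate was assumed to vary like the other lines, and shares over all fragments tested were not computed for these fits. A replicate block gave 51, 70 and 1; same-numbered replicates did not deviate together (correlations 0.05, -0.05 and -0.02), so the numbers were not taken as a pairing.

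The log2 difference of promoter end and body moved to 0.62 in BT483, -0.012 in SUM44 and 0.61 in GM06990 with the single start fragment, to -0.044 in SUM44 and 0.20 in GM06990 with the first 40 kb, and to 0.015 in SUM44 and 0.32 in GM06990 with target length as covariate. It was 0.021 in SUM44 with a telomeric background and 0.49 in GM06990 with knots at distance quantiles, both chosen after seeing the data. Leaving out 1 replicate gave -0.03 to 0.46 in BT483, 0.04 to 0.08 in SUM44 and 0.37 to 0.46 in GM06990. The log2 body over background was 0.62 in BT483, 0.077 in SUM44 and 2.13 in GM06990 against centromeric targets, and -0.35, -0.55 and 0.14 against telomeric targets. It was -0.23 in SUM44 and 0.94 in GM06990 with a background without PVT1, -0.22 in SUM44 with target length and -0.16 in SUM44 with knots at quantiles. Leaving out 1 replicate gave 0.02 to 0.12 in BT483, -0.21 to -0.20 in SUM44 and 0.62 to 0.87 in GM06990.

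Called pairs numbered 2 in BT483, 4 in SUM44 and 229 in GM06990 with a Poisson background. In GM06990 they were 2 at an adjusted p of at most 0.05 and 2 with a background without PVT1, and 0 when either replicate was left out. Of 630 values for named fragments under the alternatives, 583 kept their side of the threshold, 43 lost the call and 4 gained one. Of those with a call in either setting, 0 reversed direction. Changes of direction among uncalled values were not counted. The cause of these changes was not tested. PVT1 pairs averaged 1.94 contacts in BT483, 2.54 in SUM44 and 1.96 in GM06990.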
